A study of Homo sapiens with 8 samples.

Results

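The small nucleolar RNA (snoRNA) host genes GAS5, SNHG1, SNHG5, SNHG6, SNHG7, SNHG8, SNHG12, SNHG15, SNHG16 and ZFAS1 were followed in MDA-MB-157, a human breast carcinoma cell line labelled estrogen receptor negative. The genes were chosen by name, with earlier results of these data known, and all 10 were found among the 21059 genes of the table. The cells carried no added allele or agent. After conditioning in low glucose medium they stayed for 48 hours, without serum, at 5 mM glucose in the low glucose group and at 25 mM in the high glucose group, a model of hyperglycemia, and each group gave 4 libraries. The labels do not say whether the 4 replicates of a group were separate cultures, so p-values measure the spread between these samples, which may be technical. All libraries come from a single cell line, and the labels name no osmotic control.

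A snoRNA host gene is transcribed and spliced like a messenger RNA, but the useful product is cut out of its introns: box C/D snoRNAs guide ribose methylation of ribosomal RNA, and box H/ACA snoRNAs guide its pseudouridylation. The spliced exons of the noncoding hosts reach the cytoplasm, and several, GAS5 among them, are degraded there by nonsense-mediated decay once a ribosome meets an early stop codon. Many hosts share the terminal oligopyrimidine (TOP) start of ribosomal protein genes, a C followed by a run of pyrimidines at the first base of the transcript, through which translation answers to mTORC1. The level of the spliced RNA therefore depends on transcription and on decay, which these data cannot tell apart, and it is not a measure of the snoRNAs.

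The start sites of 8 hosts are shown so that this feature can be read from the annotated sequence. The windows with coordinates come from RefSeq on GRCh38.p14 and run from 30 bases before the annotated start to base 30 of the transcript. SNHG6 and SNHG15 had no entry in that table. For GAS5 and SNHG5 the first 30 bases of the most often shared GENCODE release 44 start are added, since the 2 sources differ in whether a pyrimidine run begins there. Capitals mark the unbroken pyrimidine run that begins at the annotated start.
SNHG1, chr11:62855856-62855915, minus strand: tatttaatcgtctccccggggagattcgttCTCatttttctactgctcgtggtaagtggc
SNHG12, chr1:28581844-28581903, minus strand: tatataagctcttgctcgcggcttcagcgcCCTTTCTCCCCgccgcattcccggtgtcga
SNHG8, chr4:118278732-118278791, plus strand: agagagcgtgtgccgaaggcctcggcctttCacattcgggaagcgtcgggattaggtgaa
SNHG7, chr9:136728155-136728214, minus strand: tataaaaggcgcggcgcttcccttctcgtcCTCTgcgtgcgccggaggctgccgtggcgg
ZFAS1, chr20:49278612-49278671, plus strand: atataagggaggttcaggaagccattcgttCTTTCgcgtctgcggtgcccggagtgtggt
SNHG16, chr17:76557734-76557793, plus strand: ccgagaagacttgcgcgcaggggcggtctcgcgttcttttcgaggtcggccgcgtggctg
GAS5, chr1:173869016-173869075, minus strand: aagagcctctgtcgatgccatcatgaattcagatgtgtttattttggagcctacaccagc
GAS5, GENCODE start: CTTTTCgaggtaggagtcgactcctgtgag
SNHG5, chr6:85678704-85678763, minus strand: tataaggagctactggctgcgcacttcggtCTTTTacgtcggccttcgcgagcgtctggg
SNHG5, GENCODE start: gctgcgcacttcggtcttttacgtcggcct

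At the RefSeq starts the run measured 11 bases in SNHG12, 5 in SNHG5 and ZFAS1, 4 in SNHG7, 3 in SNHG1, 1 in SNHG8 and 0 in SNHG16 and GAS5. At the most shared GENCODE starts it measured the same in SNHG12, ZFAS1, SNHG7, SNHG1 and SNHG16, but 6 in GAS5 (50 of 91 transcripts), 5 in SNHG8 and 0 in SNHG5 (61 of 89 transcripts), and it was 0 in SNHG15. The presence of the run therefore depended on the annotation for GAS5 and SNHG5. In SNHG8 the RefSeq start fell inside such a run, and in SNHG16 the letters CTTTTC began at base 6 of the annotated transcript. The GENCODE start of GAS5 and the window of SNHG16 shared 11 consecutive bases, CTTTTCGAGGT. The letters CTTT, searched on the transcribed strand within 10 bases on either side of the start, were found in 5 of the 8 hosts in the RefSeq table (SNHG5, SNHG8, SNHG12, SNHG16 and ZFAS1), in 9 of the 16 ribosomal protein genes that host snoRNAs and are in that table, and in 8.83% of its 27305 genes. On either strand the share over all genes was 14.8%. A start at C was annotated for 6 of the 8 hosts and for 15% of all genes. Of the 5 hosts with the letters, SNHG12, SNHG8 and, marginally, ZFAS1 were called higher at high glucose in the test described next. SNHG16 and SNHG5 did not pass it. Of the hosts in the RefSeq table without the letters, SNHG1 and SNHG7 were called higher and GAS5 did not pass. Among genes with a mean of at least 5 counts per 1000000 reads, 33.6% were called higher and 33.3% lower. No relation between the letters and the calls was tested. A match of letters is a description and not a measured TOP start.

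High glucose was accompanied by more host gene RNA for 6 of the 10 genes and by less for none (adjusted p under 0.05, limma), and 4 did not pass. The values are per gene and do not separate spliced from unspliced RNA. SNHG1 and SNHG12 more than doubled, SNHG15 rose 1.62-fold, and SNHG8, SNHG7 and ZFAS1 rose 1.23-fold to 1.38-fold in mean counts per 1000000 reads (CPM, scaled with trimmed-mean factors). GAS5 and SNHG5 had lower means at high glucose, which did not pass with all 8 libraries in this fit and passed when high glucose replicate 1 was left out. Over all 21059 genes, 46.8% were called, 22% as higher and 24.8% as lower. All 10 hosts were among the 11297 genes with a mean of at least 5 CPM over the 8 libraries, and of these genes 66.9% were called, 33.6% as higher and 33.3% as lower. The share of hosts called was therefore near the background. Their direction was 6 higher against 0 lower where the background was even, and 5 higher against 2 lower without high glucose replicate 1. Of 22 other noncoding hosts, 6 rose and 6 fell. The 10 hosts were chosen with earlier results of these data known, so their direction is a description and was not tested. The median log2 change was 0.30 over the hosts and -0.01 over all genes tested.

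The libraries held an estimated 9721649 to 12482542 reads, and 3 reads were worth 0.212 to 0.267 CPM, far below every host value. ESR1, the estrogen receptor gene, averaged 0.121 and 0.0598 CPM at low and high glucose, below that floor, while VIM averaged 4091 and 2967 CPM. PGR, the progesterone receptor gene, averaged 4.76 and 5.35 CPM at low and high glucose, above that floor. Of 7 blood and endothelial markers, 4 were in the table and their summed level ran from 2.57 to 3.28 CPM in the low and from 1.91 to 3.02 CPM in the high glucose libraries. One library stood apart: high glucose replicate 1 had the highest value of its group for 9 of the 10 hosts. Its difference from the mean of the other high glucose libraries had a Spearman correlation with transcript length of -0.24 across 11255 genes (not independent replicates). Measured the same way, the correlation was 0.08 to 0.17 for the others of its group and -0.05 to 0.04 at low glucose. The mean set against each of those others included high glucose replicate 1, so their values in part mirror that of replicate 1. Relative to the low glucose mean, the median host was 0.47 higher on the log2 scale in that library and 0.24 to 0.25 higher in the other 3. The part of transcript length in the host values was not tested, and each host, and each count over a list, whose call changes without that library is given with both values.

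**Figure D1:**
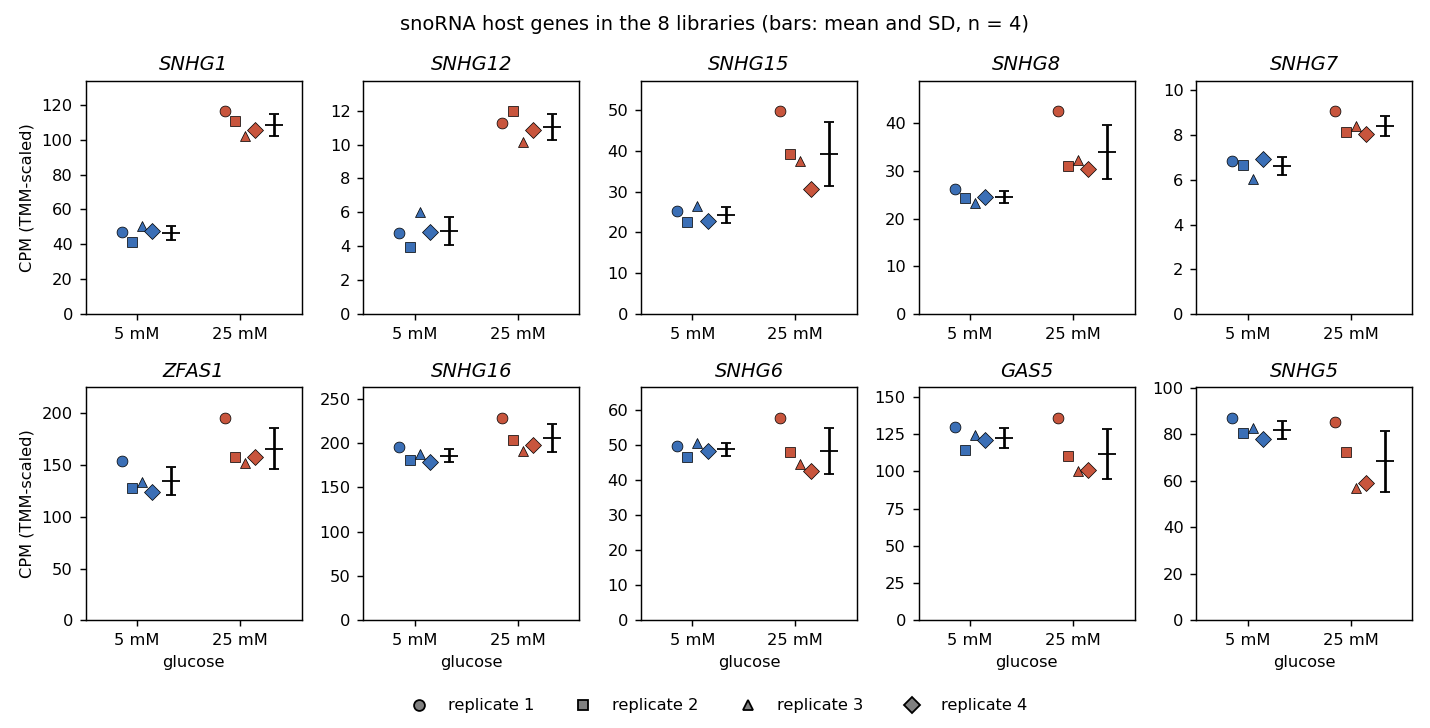
Deposited CPM of each host gene (vertical axis, starting at 0, one panel per gene, ordered by log2 change) in the 4 low glucose (5 mM, blue) and 4 high glucose (25 mM, red) libraries, with the mean and SD beside the points. SNHG1, SNHG12, SNHG15, SNHG8 and SNHG7 have no overlap between groups, and high glucose replicate 1 (circle) is the highest of its group in 9 of the 10 panels.

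Hosts of box H/ACA snoRNAs are taken first. By RefSeq, 4 of the genes contain more H/ACA than C/D snoRNAs, 8 snoRNAs in all, and all 4 rose, by 0.31 to 1.04 on the log2 scale. This grouping was made after the values were seen and was not tested. Among genes of at least 5 CPM, 33.6% were called higher and 33.3% lower.

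SNHG12 (ENSG00000197989.14, chromosome 1, 28905050 to 28909644 on the minus strand, GRCh37), which contains SNORA16A, SNORA44, SNORA61 and SNORD99, had 4.75, 3.98, 6.03 and 4.82 CPM in the low glucose libraries. In the high glucose libraries it had 11.3, 11.96, 10.1 and 10.8 CPM. The lowest high glucose value exceeded the highest low glucose value by well over the spread of either group. Means were 4.89 ± 0.849 and 11.1 ± 0.762 CPM (SD, n = 4), a 2.26-fold difference and a log2 change of 1.04 ± 0.11 (SE, adjusted p = 2.4e-04, limma).

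SNHG15 (ENSG00000232956.8, chromosome 7, 45022618 to 45026560, minus strand), the host of SNORA9 and known as a short-lived RNA, had 25.3, 22.4, 26.4 and 22.9 CPM at low glucose. It had 49.7, 39.2, 37.6 and 30.7 CPM at high glucose. The groups did not overlap, but the high glucose libraries spread widely, with replicate 1 at the top and replicate 4 at the bottom. The log2 change was 0.66 ± 0.14 (adjusted p = 0.00670), and 0.54 without high glucose replicate 1 (adjusted p = 0.00565).

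SNHG8 (ENSG00000269893.7, chromosome 4, 119199858 to 119206471, plus strand), the host of SNORA24, had 26.3, 24.4, 23.2 and 24.6 CPM at low glucose and 42.5, 31.1, 32.2 and 30.3 CPM at high glucose. High glucose replicates 2 to 4 lay close together, replicate 1 lay above them, and the groups did not overlap. The log2 change was 0.44 ± 0.11 (adjusted p = 0.0128). Without that library it was 0.33 ± 0.05 (adjusted p = 0.00146).

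SNHG7 (ENSG00000233016.6, chromosome 9, 139615818 to 139622636, minus strand), the host of SNORA17A and SNORA17B, had values of 6.85, 6.68, 6.05 and 6.93 CPM at low glucose and 9.06, 8.15, 8.42 and 8.07 CPM at high glucose. No low glucose library reached the lowest high glucose library. The means were 6.63 ± 0.399 and 8.42 ± 0.452 CPM, and the log2 difference was 0.31 ± 0.06 (adjusted p = 0.00552).

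The other 6 hosts contain mostly box C/D snoRNAs, 29 snoRNAs in all. Of these hosts, 2 rose, 0 fell and 4 did not pass, with log2 changes from -0.28 to 1.20. Without high glucose replicate 1, SNHG1 was called higher, GAS5 and SNHG5 were called lower, and ZFAS1, SNHG16 and SNHG6 did not pass. The background is the same, 33.6% called higher and 33.3% lower (35.4% and 35.7% without that library). No difference between the 2 kinds of host was tested.

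SNHG1 (ENSG00000255717.6, chromosome 11, 62619450 to 62623425, minus strand) is the classical case of a gene whose introns rather than exons carry the product. RefSeq places 9 snoRNAs in it, SNORD22 and SNORD25 to SNORD31 among them. It had 47.3, 41.1, 50.5 and 47.9 CPM at low glucose and 116, 111, 102 and 106 CPM at high glucose. Every high glucose library lay above the whole low glucose group, by more than the spread within either. The means were 46.7 ± 4.01 and 109 ± 6.20 CPM, 2.33-fold apart, with 1.20 ± 0.07 on the log2 scale (adjusted p = 1.4e-05), with the smallest adjusted p of the 10 hosts.

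ZFAS1 (ENSG00000177410.12, chromosome 20, 47894715 to 47916137, plus strand), the host of SNORD12, SNORD12B and SNORD12C, takes its name from its position antisense to the start of ZNFX1. It had 154, 127, 134 and 124 CPM at low glucose and 195, 158, 152 and 157 CPM at high glucose. The groups overlapped slightly, since low glucose replicate 1 exceeded high glucose replicate 3. The log2 change was 0.29 ± 0.10 (adjusted p = 0.0448). This call was marginal: it was lost when any library other than low glucose replicate 1 was left out, with adjusted p from 0.0508 without high glucose replicate 3 to 0.110 without low glucose replicate 4, and 0.0596 without high glucose replicate 1, where the log2 change was 0.21.

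SNHG16 (ENSG00000163597.14, chromosome 17, 74553809 to 74667067, plus strand), the host of SNORD1A, SNORD1B and SNORD1C, was at 196, 181, 188 and 179 CPM at low glucose. At high glucose it was at 229, 204, 192 and 198 CPM. High glucose replicate 3 lay below low glucose replicate 1, and the log2 change of 0.14 ± 0.06 did not pass (adjusted p = 0.0881, 95% confidence interval 0.0034 to 0.28 before adjustment).

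GAS5 (ENSG00000234741.8, chromosome 1, 173827697 to 173838020, minus strand) has the most snoRNAs of the family, 11, and is named for its accumulation in growth-arrested cells. Its RNA is also known to bind the glucocorticoid receptor. It was at 129.9, 114, 124 and 121 CPM at low glucose and at 136, 110.1, 99.9 and 101 CPM at high glucose. High glucose replicate 1 was the highest of the 8 libraries and the other 3 were the lowest. With all libraries the log2 change was -0.14 ± 0.10 (adjusted p = 0.310, 95% confidence interval -0.38 to 0.10), and without high glucose replicate 1 it was -0.24 ± 0.05 (adjusted p = 0.0119).

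SNHG5 (ENSG00000203875.11, chromosome 6, 86360209 to 86388650, minus strand), the host of SNORD50A and SNORD50B, lies at a chromosomal breakpoint from which it was first described in lymphoma. It was at 87.02, 80.3, 82.6 and 77.8 CPM at low glucose and at 85.1, 72.2, 56.9 and 59.01 CPM at high glucose. Apart from replicate 1, every high glucose value was below every low glucose value. The log2 change was -0.28 ± 0.13 with all libraries (adjusted p = 0.120, 95% confidence interval -0.58 to 0.02) and -0.39 ± 0.09 without replicate 1 (adjusted p = 0.0127).

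SNHG6 (ENSG00000245910.8, chromosome 8, 67832796 to 67838633, minus strand), the host of SNORD87, was at 49.8, 46.5, 50.7 and 48.4 CPM at low glucose and at 57.8, 48.1, 44.8 and 42.7 CPM at high glucose. The high glucose values lay on both sides of the low glucose values. The log2 change was -0.02 ± 0.09 (adjusted p = 0.887, 95% confidence interval -0.24 to 0.19), and its sign turned with median-of-ratios scaling, to 0.02, with scaling to equal totals, to 7.3e-04, and without high glucose replicate 3 or 4, to 0.0091 or 0.0319.

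**Figure D2:**
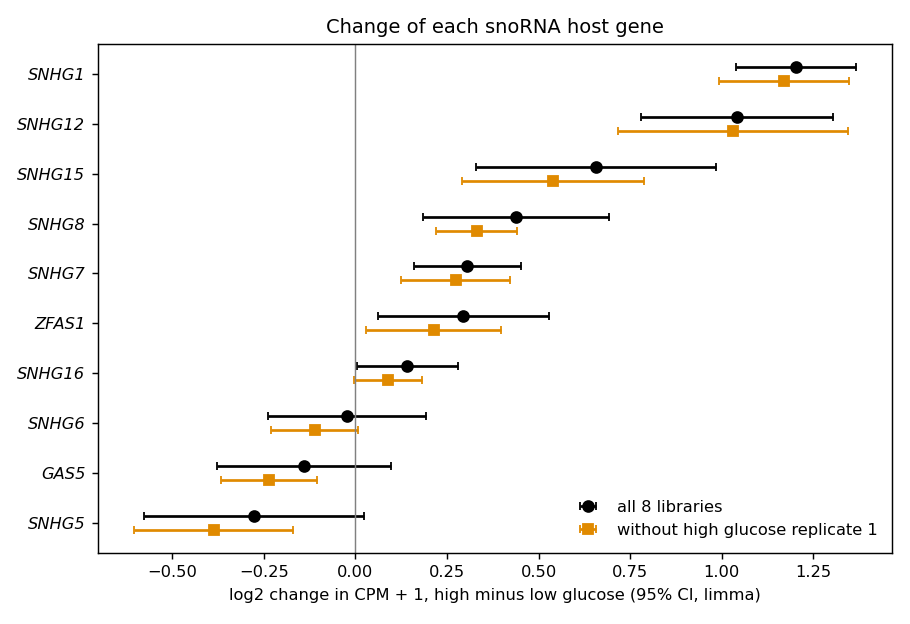
Log2 change in CPM + 1 (horizontal axis, high minus low glucose, bars are 95% confidence intervals from limma) of each host gene with all 8 libraries (black) and without high glucose replicate 1 (orange). From SNHG1 at 1.20 to SNHG5 at -0.28, leaving out that library moved every host downward, and GAS5 and SNHG5 then lay below 0 with their whole interval.

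Without high glucose replicate 1, 7 hosts were called, 5 higher (SNHG1, SNHG12, SNHG15, SNHG8 and SNHG7) and 2 lower (GAS5 and SNHG5), where 22.8% and 25.4% of all genes were called in those directions, 48.2% in all. Among genes of at least 5 CPM these shares were 35.4%, 35.7% and 71%. The median log2 change over the hosts was then 0.24. In 5 hosts the 4 high glucose libraries lay wholly above the 4 low glucose libraries, and in 0 wholly below. Over all genes these shares were 20.9% and 23.6%, 44.5% together, and over genes of at least 5 CPM both were 32.5%, 65% together.

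**Figure D3:**
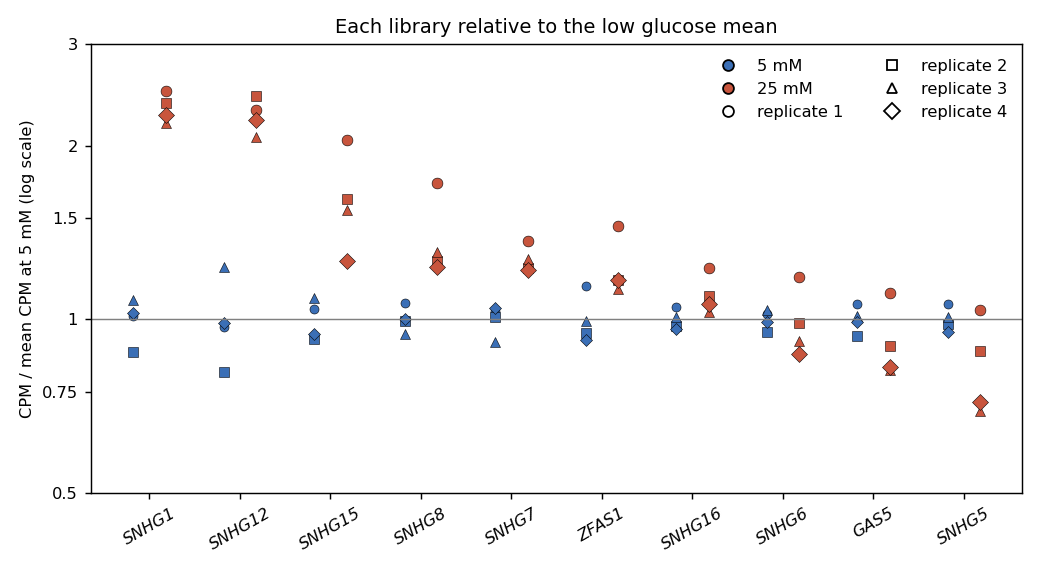
CPM of each library divided by the low glucose mean of that gene (vertical axis, log scale) for the 10 host genes, with low glucose in blue, high glucose in red and one symbol per replicate. The red points of SNHG1 and SNHG12 lie above 2, while those of SNHG6, GAS5 and SNHG5 straddle 1, with replicate 1 above the other 3.

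None of the snoRNAs that RefSeq places inside these hosts, 37 in all, was among the rows of the table, and 3 snoRNA rows were present for other loci, at no more than 1.67 CPM. The levels of the snoRNAs themselves were not analysed here.

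Genes that start close to a host on the other strand were compared with it. SLC3A2, the heavy chain shared by several amino acid transporters, starts 51 bases from SNHG1 on GRCh37 and is transcribed away from it. It had 258, 261, 259 and 258 CPM at low glucose and 966, 811, 734 and 687 CPM at high glucose. Both genes of this pair thus rose in every high glucose library, SLC3A2 by 1.61 ± 0.10 on the log2 scale (adjusted p = 1.9e-05) and SNHG1 by 1.20.

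ZNFX1, whose start lies 248 bases from that of ZFAS1, had mean values of 145 ± 4.25 CPM (low) and 146 ± 16.9 CPM (high). Its log2 change was 0.0029 (95% confidence interval -0.19 to 0.20). ZBTB37, 800 bases from GAS5, averaged 18.1 ± 1.57 and 12.6 ± 3.87 CPM, and its difference of -0.54 on the log2 scale did not pass (adjusted p = 0.0796). AC015802.4, 44 bases from SNHG16, averaged 0.368 and 0.0912 CPM, near or under the value of 3 reads. No table gene started within 5 kb of the other hosts on the opposite strand.

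For part of the host reads the gene of origin is uncertain. In GENCODE release 44, exons of SNHG6, SNHG8, ZFAS1, SNHG7 and SNHG16 overlap those of a gene on the other strand over 28.5% to 58.9% of their combined length (the largest overlap with 1 gene), and no source says that reads were counted by strand. Of the 31-base words in all annotated SNHG5 transcripts, 17.3% also occur in another gene. SNHG1 and SNHG15 had no such overlap, with 0% and 0.792% of their words shared.

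Other noncoding snoRNA hosts went both ways. Of 23 on a list from general knowledge, 22 were in the table, 6 rose, 6 fell and 10 did not pass, with a median log2 change of 0.08 and the same counts in each direction without high glucose replicate 1. These counts were near the background: over all genes 22% were called higher and 24.8% lower. Among genes of at least 5 CPM the shares were 33.6% and 33.3%. Among the 14 with a mean of at least 5 CPM, DANCR, SNHG3, SNHG4 and SNHG30 rose, with log2 changes of 0.41, 0.15, 0.40 and 0.34. SNHG14, the very long host of the imprinted Prader-Willi region, fell most, from 158 ± 4.97 to 77.8 ± 10.5 CPM. Its log2 change was -1.02 with an adjusted p of 1.5e-04. SNHG18, SNHG29, SNHG11 and SNHG32 fell by 0.73, 0.32, 0.59 and 0.27 on the log2 scale. SNHG10, SNHG20, SNHG17, EPB41L4A-AS1 and SNHG19 did not pass, with log2 changes between -0.11 and 0.26.

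Protein-coding hosts were read from lists of the same kind, against a background of 33.6% called higher and 33.3% called lower among genes of at least 5 CPM (35.4% and 35.7% without high glucose replicate 1). Of 21 hosts that encode no ribosomal protein, 15 rose, 2 fell and 4 did not pass, with a median log2 change of 0.24. The 2 that fell were RACK1, from 1912 to 1222 CPM (log2 change -0.65), and EEF2, from 1018 to 812 CPM (-0.33). Without high glucose replicate 1, 18 rose and 3 fell, EEF1B2 (-0.14) besides RACK1 and EEF2. NOP56 rose from 188 to 356 CPM (log2 change 0.92), NOP58 from 58.2 to 92.7 CPM (0.66) and DKC1 from 131 to 202 CPM (0.62). Each hosts snoRNAs and also encodes a core protein of the particles that snoRNAs form, NOP56 and NOP58 for box C/D and DKC1, the pseudouridine synthase, for box H/ACA. Of 25 ribosomal protein genes that host snoRNAs, 0 rose, 18 fell and 7 did not pass, with a median of -0.40, and when the same library was left out 23 fell. RPL12 was at 394 ± 6.29 and 257 ± 23.7 CPM, RPL5 at 832 and 552 CPM and RPL7A at 1145 and 803 CPM, with adjusted p of 1.8e-04, 2.0e-04 and 4.9e-04. Reads of ribosomal protein genes are partly of uncertain origin because of their many pseudogenes.

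The proteins that build snoRNA particles, the decay factors and the regulators of TOP transcripts were read from the same fit. In it 66.9% of genes of at least 5 CPM were called, 33.6% as higher and 33.3% as lower. Without high glucose replicate 1 these shares were 71%, 35.4% and 35.7%. Of 19 snoRNA particle genes, 13 rose, 1 fell and 5 did not pass, with a median log2 change of 0.35 and the same 3 leading genes, NOP56, NOP58 and DKC1. Without high glucose replicate 1 the count was 13 higher and 3 lower, RUVBL1 with FBL and NHP2, which were named after their values were seen. Of 16 nonsense-mediated decay genes, 11 rose, 0 fell and 5 did not pass, with a median of 0.35, and 12 rose and 0 fell without that library. SMG5 went from 110.1 ± 2.70 to 148 ± 1.56 CPM (log2 change 0.42), RBM8A from 86.4 to 116 CPM (0.43) and UPF1, the central helicase of this decay, from 102 to 155 CPM (0.60). Among 19 regulators of TOP transcripts and mTORC1, 11 rose, 5 fell and 3 did not pass, with a median of 0.42, and 12 rose and 5 fell without it. LARP4 went from 60.5 to 114 CPM, LARP1B from 14.7 to 31.1 CPM and RHEB, the activator of mTORC1, from 64.7 to 102 CPM. The 5 that fell were MLST8, EIF4EBP1, TIA1, TSC2 and RPTOR, with log2 changes of -1.02, -0.96, -0.62, -0.47 and -0.32. LARP1, MTOR and EIF4EBP2 were the 3 that did not pass. For the glucocorticoid receptor and genes it induces, 4 of 11 rose, 2 fell and 5 did not pass (6 and 2 without the same library). Of these 11, 9 had a mean of at least 5 CPM. ZBTB16, at 0.0633 and 0.0206 CPM at low and high glucose, was below the value of 3 reads. Over all genes 22% were called higher and 24.8% lower. ERRFI1, SGK1 and DUSP1 had log2 changes of 1.21, 1.21 and 1.51. The 2 that fell were TSC22D3 and CRISPLD2, with log2 changes of -1.05 and -0.42.

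**Figure D4:**
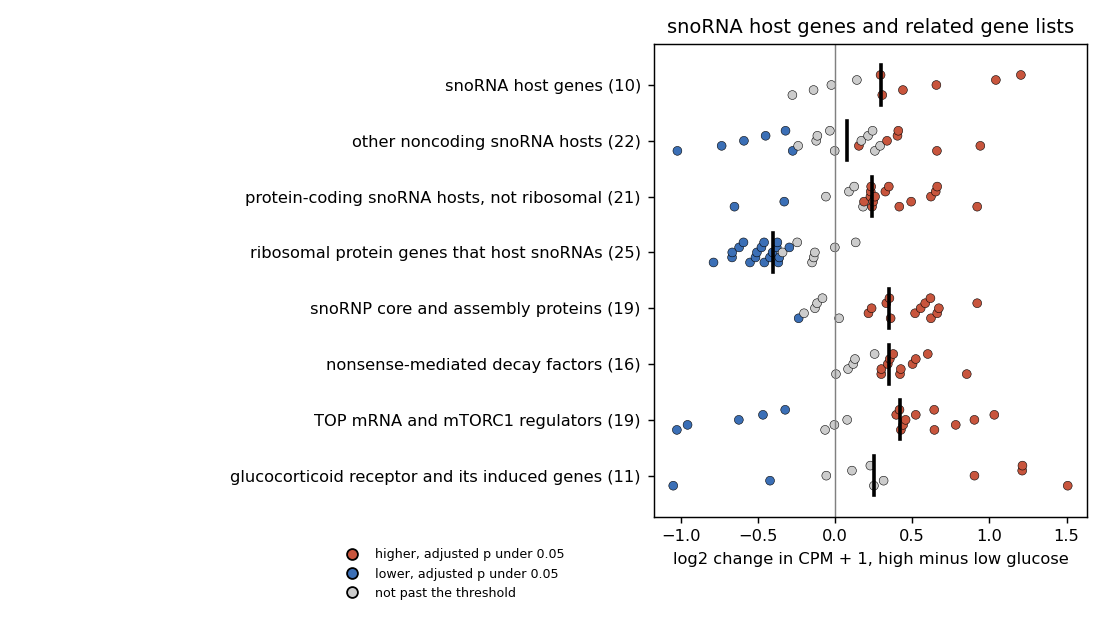
Log2 change in CPM + 1 (horizontal axis, high minus low glucose) of every gene of each list in the table, with the number of genes in brackets, red or blue where the adjusted p was under 0.05 and grey where it was not, and a black bar at the list median. The noncoding hosts named at the top have a median of 0.30, and the ribosomal protein genes that host snoRNAs a median of -0.40.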

How the data were processed

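RNA was sequenced from 4 low glucose and 4 high glucose samples, grouped by their labels. The authors deposited 1 table of CPM values, scaled with TMM factors from edgeR. Their methods describe TruSeq stranded libraries and TopHat alignment to hg19 for tumors, while the submitters' processing notes name hg38, so the build is not settled. The counting tool is not given in the sources used here. Low values lay on steps of 1 read, from which reads per library were estimated, but only 72.5% to 74.1% of values below 200 reads were whole within 0.01, so no count test was run. Depths and floors cover counting error only.

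From the 21077 lines, 18 pseudoautosomal Y copies were left out. Values were tested as log2(CPM + 1) with limma 3.58.1 in R 4.3.3 (mean-variance trend, 2-sided, no covariate), adjusted by Benjamini-Hochberg over 21059 genes. The scale understates changes of low genes. The steps were tested on simulated data. Gene positions came from GENCODE release 44 on GRCh37, and RefSeq on GRCh38.p14 gave start sequences and snoRNA names. The members and lists were chosen with earlier results of these data known. Named genes are all members, other noncoding hosts of at least 5 CPM, up to 3 genes with the smallest adjusted p per list, and neighbours within 5 kb. Some listed genes that fell or did not pass were added after their values were seen. Over genes of at least 5 CPM, same-numbered replicates did not deviate together (correlations -0.04 to 0.07), so no pairing was used in the main fit. Among the hosts, low glucose replicate 1 was the highest of its group for 5 and high glucose replicate 1 for 9. A fit with a replicate block is given below.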

Additional observations from a re-analysis of the deposited data

Results flagged for a closer look

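Among the hosts, the other noncoding hosts of at least 5 CPM and the neighbours, 56 groups of 4 libraries were examined for a library far from the rest of its group, measured as its gap to the nearest other value divided by the range of the group and set against the 95% limit of Dixon's test. There were 4 such groups, where chance gives about 2.8. High glucose replicate 1 lay above the other 3 for SNHG8, at 42.5 CPM with a ratio of 0.841, and for ZFAS1, at 195 CPM with a ratio of 0.872. Low glucose replicate 1 lay above for SNHG32, at 166 CPM with a ratio of 0.932. Low glucose replicate 2 lay above for SLC3A2, at 261 CPM with a ratio of 0.859, in a group whose SD was only 1.43 CPM.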

How the results depend on the processing

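The alternatives were other pseudocounts, filters, scalings, weights, trend corrections, the replicate block, a stricter threshold and leaving out each library. SNHG1, SNHG12, SNHG15, SNHG8 and SNHG7 passed in each of the 18 alternatives that refitted the model, all higher. The length and GC trend corrections were made within each group, so by construction they barely moved a log2 change and acted on its spread. They could not remove a length or GC difference between the groups. SNHG5 passed with genes of at least 5 CPM only (-0.28), quantile normalization (-0.37), and the length trend removed by median (-0.28) or canonical transcript length (-0.28). SNHG16 passed with the 5 CPM minimum (0.14), median-of-ratios scaling (0.18), equal total (0.17), the replicate block (0.14) and the canonical length trend removed (0.14), where GAS5 passed too (-0.14). The canonical length was chosen after seeing the data. ZFAS1 did not pass with quantile normalization (0.19). Leaving out 1 library gave log2 changes of -0.24 to -0.090 for GAS5, -0.39 to -0.20 for SNHG5 and 0.21 to 0.36 for ZFAS1. The count of hosts called ran from 4 at the stricter threshold to 9, and the replicate block gave 7 hosts and 8921 genes in all and changed no other host call. The causes were not tested. For SNHG6 the 95% confidence interval of the log2 change, -0.24 to 0.19, limits what 4 libraries per group could show.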

Other observations

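GAS5 was compared with the 11296 other genes of at least 5 CPM by Pearson correlation of log2(CPM + 1) over the 8 libraries, as a description. Most like it were PSMB6 and PSMD10, both of the proteasome, RPS27A and RPL23A, both ribosomal protein genes, and SLC25A3, the mitochondrial phosphate carrier, with correlations of 0.987, 0.980, 0.978, 0.977 and 0.978 in that order. The libraries share the glucose groups and the higher level of high glucose replicate 1, which such a correlation carries. Mean CPM at low and high glucose was 1180 and 1067 for RPS27A and 115 and 108 for PSMB6.

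Among the less abundant noncoding hosts, SNHG21 rose from 2.55 ± 0.556 to 5.82 ± 1.04 CPM (log2 change 0.94, adjusted p = 0.00184, limma) and SNHG26 from 2.98 ± 0.893 to 5.22 ± 0.888 CPM (0.66, adjusted p = 0.0233), both without overlap between the groups. MEG8, of the imprinted DLK1-DIO3 region, fell from 1.32 to 0.683 CPM (-0.45, adjusted p = 0.0487). These 3 lie below the minimum of 5 CPM and were named after their values were seen.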
